A study of Mus musculus with 4 samples.

Results

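Immediate early genes are transcribed within minutes of a stimulus, from promoters that are already occupied by factors such as SRF and CREB, so that their mRNA rises without new protein synthesis. The 10 genes described here are Fos, Fosb, Jun, Junb, Egr1, Atf3, Nr4a1, Nr4a2, Ier2 and Gadd45b, chosen by symbol from the 32285 genes of the deposited matrices. Cells entered the count if they expressed 500 genes or more and gave no more than 10% of their UMIs to mitochondrial genes. A UMI (unique molecular identifier) is a tag that lets each captured mRNA be counted once. The cells were those of the whole mouse nose at embryonic day 14.5, in 2 libraries titled WT, called control here, and 2 titled Sox10Cre/Yap/Taz cKO, called mutant. The labels give the mutant libraries the Cre line Tg(Sox10-cre)1Wdr, which acts where Sox10 is expressed, together with Yapflox and Tazflox on C57Bl/6J. The series design gives their genotype as Sox10cre;yap flox/WT;taz flox/flox, with 1 wild-type Yap allele, while the labels do not say whether 1 or both Yap alleles were floxed. The control libraries are C57Bl/6J by the labels and yap flox/flox;taz flox/flox without Cre by the design, and neither genotype was settled. All 4 libraries passed through the same steps by the labels: digestion with papain and collagenase A, slow freezing, thawing and droplet capture with 3-prime chemistry. Sequencing was shared by 2 providers, with no word on which library went to which.

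The proteins fall into a few families. Fos, Fosb, Jun and Junb are subunits of AP-1, a dimeric transcription factor, and Atf3 is a stress-induced relative that pairs with Jun proteins. Egr1 is a zinc finger factor downstream of ERK and SRF, Nr4a1 and Nr4a2 are orphan nuclear receptors, Ier2 is a rapidly induced nuclear protein and Gadd45b is a stress-inducible regulator of MAP kinase signalling. In living tissue these genes answer growth factors, stretch and calcium, and in cell suspensions they are also known to answer warm enzymatic digestion. YAP and TAZ, the coactivators targeted in the mutants, work with TEAD factors, which share many enhancers with AP-1. In the present libraries transcription in the embryo and transcription during handling cannot be told apart.

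The libraries held 2827 to 4846 barcodes and 20170229 to 35887490 UMIs, and 2474 to 4195 cells passed the filter, with median depths of 5282 to 8549 UMIs. Control 2 stood apart in several measures: it had the highest median mitochondrial share (2.80%, against 2.37% to 2.48% in the other 3), the highest Malat1 level (16180 UMIs per 1000000 UMIs, CPM, against 11570 to 13306) and the highest haemoglobin level (1245 CPM, against 143 to 714). Any pair of libraries shared 3 to 5 cell barcodes. Yap1 in glia-like cells had levels of 57.8 and 55.5 (controls) and of 45.5 and 64.6 CPM (mutants), and Wwtr1, which encodes TAZ, at 222, 190, 241 and 306 CPM. Tags from the 3-prime end do not show whether a floxed exon is missing, so these levels do not check the labels. Cells were assigned to classes by how many marker genes of each class they expressed, none of them among the 10 genes. Classes are called glia-like, keratinocyte-like and so on. Each class had 3 to 8 of its own markers and none of another class's among its 10 leading genes. Since cells were assigned by these same markers, that is no separate check of the classes. The macrophage-like class also led with Cma1 and Cpa3, genes of mast cells, and the endothelial-like class had Hbb-bs, a red cell gene, among its 10 leading genes, at 2157, 10.7, 6655 and 1140 CPM; the part of these in the results was not tested. In 9 classes every library had at least 20 cells, and these were tested. The olfactory neuronal lineage (17 to 36 cells) and skeletal muscle-like cells (15 to 31 cells) were below that number in some library, so their levels are given without a test. Between 5.62% and 5.88% of cells per library were left unassigned.

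The RefSeq table of promoters held an entry for 8 of the 10 genes, but none for Egr1 and Ier2. The 250 bases before the start of transcription were examined for short motifs known from such promoters. The core of the cAMP response element, TGACG on either strand, occurred in 6 of the 8 promoters, against 17.9% of 32536 mouse promoters of that length. A TATA box, TATAAA on the gene's strand, occurred in Fos and Gadd45b, against 7.55% of promoters. The full cAMP response element TGACGTCA, the AP-1 site TGANTCA (both also read on the other strand) and the SRF site known as the CArG box were found in none of the 8, against 1.56%, 6.73% and 1.48% of promoters. Exact matches within 250 bases miss sites farther from the start and sites with other letters, so these genes may still have such sites. The 3 promoters with 2 or more copies of the core are printed 5′ to 3′, from GRCm38.p6, because they show how densely it can occur, with the core (TGACG, or CGTCA on the other strand) and the TATA box in capitals. Fos lies at chr12:85473640-85473889 (plus strand), Nr4a1 at chr15:101266596-101266845 (plus strand) and Nr4a2 at chr2:57124004-57124253 (minus strand).
Fos: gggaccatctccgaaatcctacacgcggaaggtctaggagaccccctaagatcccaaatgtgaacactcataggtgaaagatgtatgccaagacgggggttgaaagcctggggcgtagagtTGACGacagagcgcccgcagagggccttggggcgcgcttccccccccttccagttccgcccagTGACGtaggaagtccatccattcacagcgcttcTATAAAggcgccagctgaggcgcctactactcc
Nr4a1: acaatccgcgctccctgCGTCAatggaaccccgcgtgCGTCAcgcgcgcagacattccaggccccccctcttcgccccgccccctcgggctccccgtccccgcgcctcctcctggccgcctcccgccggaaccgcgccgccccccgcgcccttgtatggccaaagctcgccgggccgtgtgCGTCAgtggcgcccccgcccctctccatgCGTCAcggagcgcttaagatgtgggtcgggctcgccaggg
Nr4a2: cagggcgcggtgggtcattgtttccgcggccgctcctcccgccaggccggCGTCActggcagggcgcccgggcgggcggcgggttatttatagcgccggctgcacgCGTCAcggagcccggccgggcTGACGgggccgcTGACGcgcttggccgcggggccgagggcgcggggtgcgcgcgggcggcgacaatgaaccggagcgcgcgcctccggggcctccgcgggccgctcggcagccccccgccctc
Fos has the core at 129 to 125 and at 66 to 62 bases before the start, and its TATA box at 33 to 28 bases before it. Nr4a1 and Nr4a2 each hold 4 cores, the nearest at 40 to 36 bases before the start in Nr4a1 and at 111 to 107 bases in Nr4a2. These matches describe the letters only. None of the 3 windows overlaps an annotated exon of GENCODE M21, and that of Nr4a1 lies within an intron of its longer transcripts.

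The class of a cell went with large differences in these genes. Summed over the 10 genes, keratinocyte-like cells had 4837 ± 637 CPM (SD, n = 4 libraries), against 1862 ± 469 CPM in mesenchyme-like cells. Simple nasal epithelium-like cells (3516 ± 533 CPM), macrophage-like (3047 ± 630 CPM), chondrocyte-like (2904 ± 768 CPM) and mural-like cells (2814 ± 371 CPM) lay between. Osteoblast-like cells were at 2099 ± 287 CPM, endothelial-like cells at 1695 ± 237 CPM and glia-like cells at 1616 ± 407 CPM. The lowest sums were in the olfactory neuronal lineage (945 ± 53.4 CPM) and in skeletal muscle-like cells (525 ± 160 CPM). Keratinocyte-like cells had the highest mean of all 11 classes for 8 of the 10 genes, and the exceptions were Gadd45b, highest in mural-like cells, and Nr4a2, highest in glia-like cells. Most neighbours in the order of classes were not apart: of 10 neighbouring pairs per gene, the gap between means was larger than both SDs in 0 (Nr4a2) to 4 (Fosb).

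**Figure D1:**
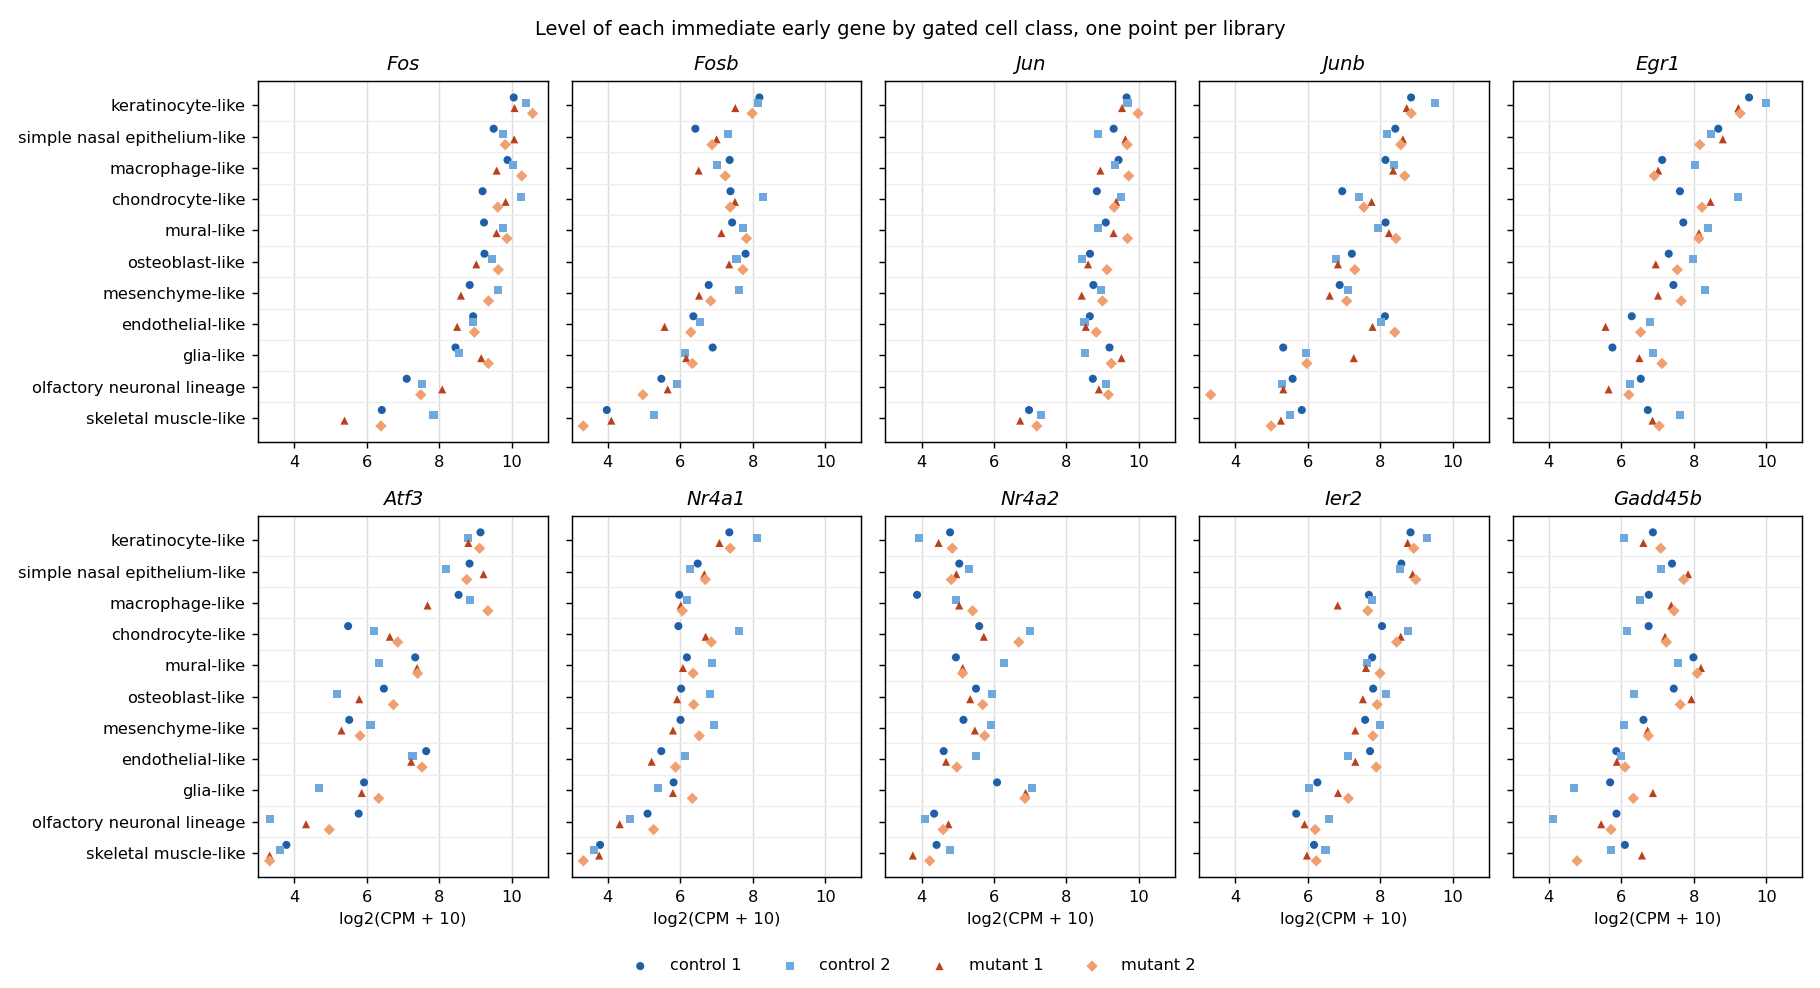
Level of each gene as log2(CPM + 10) in 11 gated classes, ordered from top to bottom by the summed level, with 1 point per library (blue, control; orange, mutant). Keratinocyte-like cells lie farthest right for 8 genes, Gadd45b peaks in mural-like cells and Nr4a2 in glia-like cells.

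For each tested class the level of a gene was set against the mean of the other 8 classes, in 1 edgeR quasi-likelihood fit over 36 class by library sums with library as a block and Benjamini-Hochberg adjustment over 12249 genes. Of 90 pairs of gene and class, 59 passed the threshold of 0.05, 29 higher and 30 lower. Keratinocyte-like cells were higher for 8 of the 10 genes (27.1% of all genes tested were called higher there) and lower for 1 (22.2%). Macrophage-like cells were higher for 5 (28.9%) and lower for 0 (28.4%), simple nasal epithelium-like cells higher for 5 (27.9%) and lower for 2 (23.5%), and chondrocyte-like cells higher for 5 (20.8%) and lower for 2 (14.4%). Mural-like cells were higher for 2 (15.1%) and lower for 0 (6.87%), and osteoblast-like cells higher for 2 (21.1%) and lower for 3 (12.2%). At the other end, glia-like cells were lower for 8 (8.41%) and higher for 1 (11.9%), endothelial-like cells lower for 7 (16.9%) and higher for 1 (22.4%), and mesenchyme-like cells lower for 7 (21.7%) and higher for 0 (27.3%). The median log2 difference over the 10 genes was 1.09 in keratinocyte-like and -1.00 in glia-like cells, beside 0.02 and -0.05 over all genes tested. Keratinocyte-like cells also had median mitochondrial shares of 2.94% to 3.66% per library, against 2.30% to 2.78% in mesenchyme-like cells, and the part of that difference in the result was not tested.

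**Figure D2:**
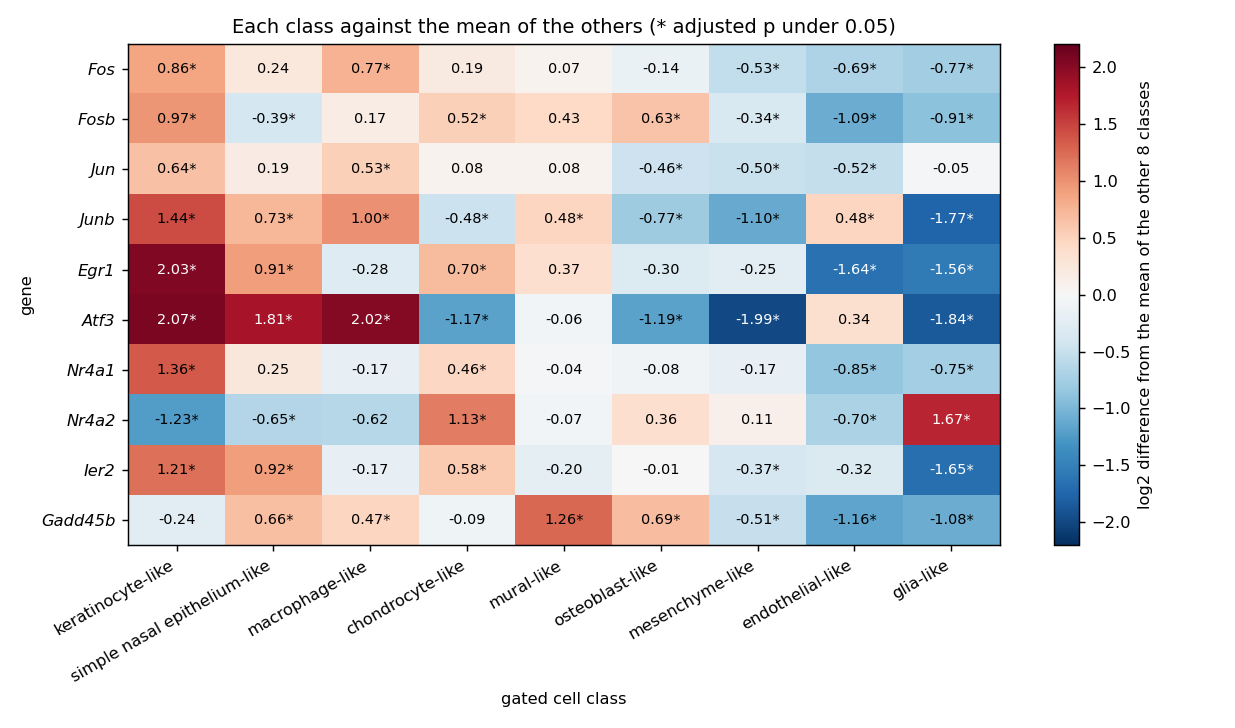
Log2 difference of each gene (rows) in each of 9 classes (columns) from the mean of the other 8, red for higher and blue for lower, with an asterisk where the adjusted p was under 0.05. The keratinocyte-like column is red except for Nr4a2 and Gadd45b, and the glia-like column is blue except for Nr4a2, with Jun near 0.

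Among the AP-1 subunits, Fos (ENSMUSG00000021250, chromosome 12, 85473890 to 85477273 on GRCm38) was at 1057, 1336, 1073 and 1520 CPM in keratinocyte-like cells of control 1, control 2, mutant 1 and mutant 2, the order kept throughout. It was above the mean of the other classes in all 4 libraries, by 0.86 ± 0.11 on the log2 scale (estimate ± SE, edgeR adjusted p = 7.82e-08). Macrophage-like cells came next at 937, 1044, 760 and 1232 CPM (log2 difference 0.77 ± 0.12, adjusted p = 1.05e-06), below the keratinocyte-like cells of the same library in 4 of 4. Fos was lower than the mean of the other classes in glia-like (-0.77 ± 0.15), endothelial-like (-0.69 ± 0.13) and mesenchyme-like cells (-0.53 ± 0.13). In mesenchyme-like cells it ranged from 378 CPM in mutant 1 to 785 CPM in control 2.

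Fosb (ENSMUSG00000003545, chromosome 7, 19302696 to 19310051), a partner of the Jun proteins like Fos, followed another order of classes. It was at 281, 275, 173 and 243 CPM in keratinocyte-like cells (0.97 ± 0.13, adjusted p = 7.84e-08) and was also higher in osteoblast-like (0.63 ± 0.14) and chondrocyte-like cells (0.52 ± 0.15). In simple nasal epithelium-like cells, where most of the other genes were high, Fosb was lower at -0.39 ± 0.15. Jun (ENSMUSG00000052684, chromosome 4, 95049034 to 95052222) varied least between classes: its highest mean, 835 CPM in keratinocyte-like cells, was 6.78 times its lowest, 123 CPM in skeletal muscle-like cells. Jun was higher in keratinocyte-like (0.64 ± 0.11) and macrophage-like cells (0.53 ± 0.12). In glia-like cells, where 8 other members were low, Jun was at 574, 353, 723 and 594 CPM and differed from the other classes by -0.05 ± 0.13 (adjusted p = 0.908). In the olfactory neuronal lineage Jun was at 414, 534, 466 and 560 CPM, a level close to that of mesenchyme-like cells, while the other 9 genes there were below their level in mesenchyme-like cells on average.

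Junb (ENSMUSG00000052837, chromosome 8, 84974484 to 84978718) separated the classes more sharply than Jun. It was at 453, 716, 416 and 454 CPM in keratinocyte-like cells (1.44 ± 0.13, adjusted p = 1.80e-11), and was also higher in macrophage-like (1.00 ± 0.15) and simple nasal epithelium-like cells (0.73 ± 0.14). In glia-like cells it was at 30.1, 51.6, 145 and 52.9 CPM (-1.77 ± 0.25), and in mesenchyme-like cells at 108, 128, 87.5 and 125 CPM (-1.10 ± 0.15). The last bases of Junb overlap those of Prdx2 on the other strand, and the first of Jun overlap Junos. The sources used here do not say that counting used the strand, so reads in these overlaps cannot be told apart.

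Atf3 (ENSMUSG00000026628, chromosome 1, 191170296 to 191218039) had the widest range. High levels were found in 3 classes: 555, 438, 438 and 545 CPM in keratinocyte-like cells, 448, 280, 589 and 424 CPM in simple nasal epithelium-like cells and 361, 456, 195 and 640 CPM in macrophage-like cells. The matching log2 differences were 2.07 ± 0.17, 1.81 ± 0.18 and 2.02 ± 0.19 (adjusted p = 1.66e-12, 1.54e-10 and 2.63e-11). These 3 classes lay above the other classes in all 4 libraries and did not stand apart from each other beyond their SDs. Mesenchyme-like cells had 35.8, 58.9, 29.5 and 46.4 CPM (-1.99 ± 0.22, adjusted p = 3.29e-09), and glia-like (-1.84 ± 0.38), osteoblast-like (-1.19 ± 0.24) and chondrocyte-like cells (-1.17 ± 0.26) were lower as well. In skeletal muscle-like cells Atf3 had a level of 0 CPM in both mutants and 3.8 and 2.2 CPM in the controls.

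Egr1 (ENSMUSG00000038418, on chromosome 18) was at 727, 1004, 591 and 612 CPM in keratinocyte-like cells, which were above the other classes in all 4 libraries (2.03 ± 0.13, adjusted p = 2.03e-15). It was higher in simple nasal epithelium-like (0.91 ± 0.15) and chondrocyte-like cells (0.70 ± 0.15) and lower in endothelial-like (-1.64 ± 0.20) and glia-like cells (-1.56 ± 0.25). In chondrocyte-like cells the libraries spread from 186 CPM in control 1 to 585 CPM in control 2. Macrophage-like cells, high for Fos, Junb and Atf3, had 130, 251, 120 and 110 CPM of Egr1, a log2 difference of -0.28 ± 0.18 (adjusted p = 0.20). Ier2 (ENSMUSG00000053560, chromosome 8, 84661331 to 84662852) followed Egr1: it was higher in keratinocyte-like (1.21 ± 0.11), simple nasal epithelium-like (0.92 ± 0.12) and chondrocyte-like cells (0.58 ± 0.13) and lower in glia-like cells (-1.65 ± 0.21).

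The nuclear receptor genes went apart from each other. Nr4a1 (ENSMUSG00000023034, chromosome 15, 101254269 to 101274795) was at 153, 266, 125 and 156 CPM in keratinocyte-like cells (1.36 ± 0.12, adjusted p = 1.79e-11) and was lower in endothelial-like cells (-0.85 ± 0.18). Nr4a2 (ENSMUSG00000026826, chromosome 2, 57106830 to 57124003) was lowest among the tested classes in keratinocyte-like cells, at 17.6, 5.2, 12.2 and 18.8 CPM (-1.23 ± 0.22, adjusted p = 1.83e-05). Its highest class was the glia-like one, at 57.8, 123, 107 and 106 CPM (1.67 ± 0.26, adjusted p = 6.38e-06), and chondrocyte-like cells were higher too (1.13 ± 0.19). The glia-like sums rested on 18 to 40 UMIs of Nr4a2 per library. Over the 36 class by library sums the level of Nr4a2 ran against that of Junb (Pearson r = -0.69) and Atf3 (r = -0.68), while Egr1 and Nr4a1 ran together (r = 0.90). These sums share libraries, so the coefficients are a description.

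Gadd45b (ENSMUSG00000015312, chromosome 10, 80930073 to 80932204) peaked in mural-like cells, the pericytes and smooth muscle around vessels, at 244, 179, 284 and 263 CPM (1.26 ± 0.12, adjusted p = 3.30e-10). It was higher in osteoblast-like (0.69 ± 0.11), simple nasal epithelium-like (0.66 ± 0.11) and macrophage-like cells (0.47 ± 0.13). It was lower in endothelial-like (-1.16 ± 0.15), glia-like (-1.08 ± 0.20) and mesenchyme-like cells (-0.51 ± 0.11). Keratinocyte-like cells, first for 8 of the other genes, had 107, 57.8, 87.6 and 126 CPM, a log2 difference of -0.24 ± 0.12 (adjusted p = 0.0993). In all 4 libraries mural-like cells were the highest of the tested classes for this gene, and endothelial-like cells, the other part of the vessel wall, were among the lowest 2.

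Of the 59 calls between classes, 47 held in every alternative run for this fit and 12 were lost in at least 1. These alternatives were no filter on low counts, doublets removed, a stricter marker gate and each library left out. DESeq2 and the stricter cell filter were not run for it. Without control 1, the adjusted p was 0.194 for Fosb and 0.0629 for Ier2 in mesenchyme-like cells, 0.540 for Fosb in simple nasal epithelium-like cells, 0.155 for Junb in chondrocyte-like, 0.109 for Junb in endothelial-like and 0.149 for Junb in mural-like cells, 0.0585 for Nr4a1 in glia-like and 0.0576 for Nr4a2 in endothelial-like cells. Without control 2, it was 0.0941 for Fosb and 0.284 for Nr4a1 in chondrocyte-like cells and 0.259 for Nr4a1 in glia-like cells. Without mutant 1, it was 0.174 for Fosb and 0.115 for Ier2 in mesenchyme-like cells, 0.0642 for Nr4a1 in chondrocyte-like, 0.0608 for Nr4a1 in glia-like, 0.116 for Nr4a2 in endothelial-like and 0.0561 for Nr4a2 in simple nasal epithelium-like cells. Without mutant 2, 11 of these 12 calls were lost, with adjusted p from 0.0628 (Gadd45b in macrophage-like cells) to 0.220 (Fosb in mesenchyme-like cells). With doublets removed or with a stricter marker gate, some of the same 12 were lost as well. The calls named above with a size of 1 or more on the log2 scale were not among the 12.

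Within a class the genes were unevenly spread over cells. After thinning each cell to 3000 UMIs, which left out 172 to 543 shallower cells per library, the median number of UMIs of the 10 genes was 12, 15.5, 10 and 14 in keratinocyte-like cells and 3, 5, 3 and 4 in mesenchyme-like cells. The tenth of mesenchyme-like cells with the most carried 33.0% to 39.3% of these UMIs, and 7.57% to 15.1% of cells carried none. In skeletal muscle-like cells the median was 1 in every library, although these cells were the deepest, with medians of 13781 to 19250 UMIs before thinning. Thinned keratinocyte-like cells had a UMI of Fos in 81.1%, 85.7%, 79.7% and 88.1% of cells, against 14.3% to 34.8% of skeletal muscle-like cells over the libraries; before thinning, the shares in keratinocyte-like cells were 91.0% to 93.8%. Atf3 was in 45.2% to 60.5% of thinned keratinocyte-like cells, and in 0 of 30 skeletal muscle-like cells of control 1, which allows a share of up to 10.0%. The share that free RNA in the droplets contributed was not measured, and it may differ between classes of different depth.

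**Figure D3:**
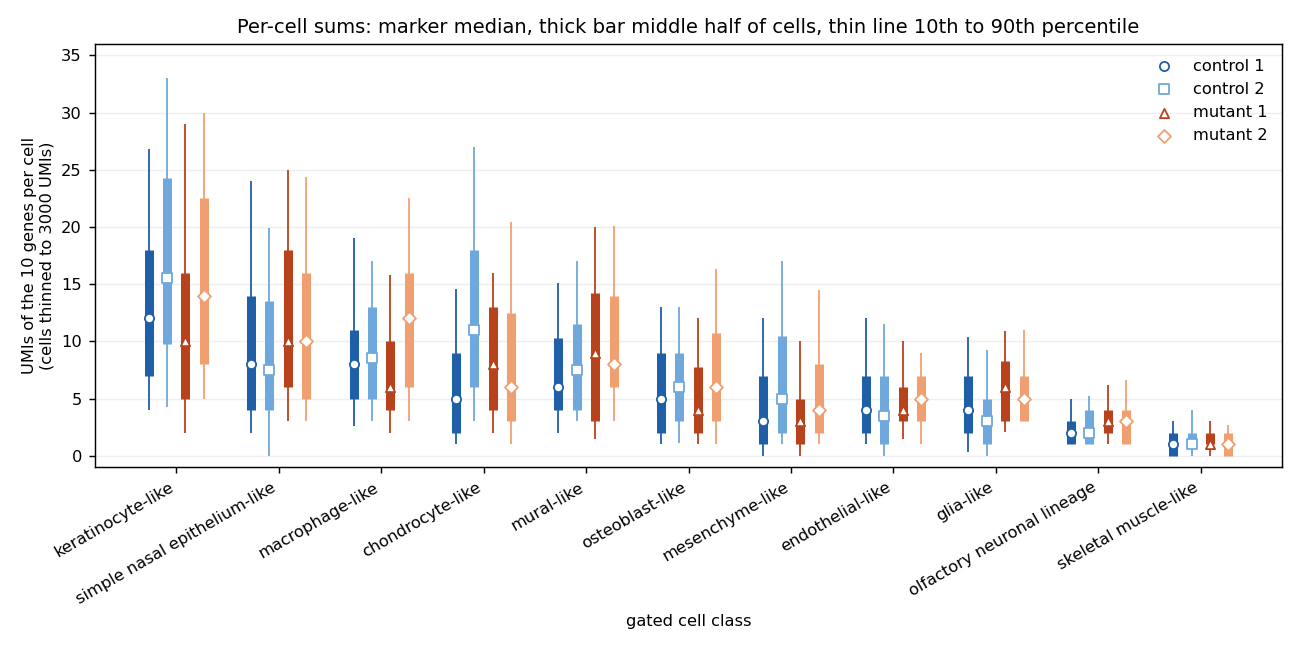
UMIs of the 10 genes per cell after thinning to 3000 UMIs, by gated class and library; markers are medians, thick bars the 25th to 75th percentile and thin lines the 10th to 90th percentile. Keratinocyte-like medians lie between 10 and 15.5 UMIs and skeletal muscle-like medians at 1.

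Cell by cell, Fos and Jun went together in mesenchyme-like cells, with Pearson r of 0.36 to 0.47 within the 4 libraries, and in keratinocyte-like cells, with r of 0.37 to 0.44. Of all pairs of the 10 genes this one had the highest mean r in both classes. Fos and Jun also had the highest mean levels of the 10 there, at 565 and 435 CPM in mesenchyme-like and 1247 and 835 CPM in keratinocyte-like cells. The part of abundance in the order of pairs was not tested. The median over pairs was 0.14 to 0.21 in mesenchyme-like and 0.13 to 0.22 in keratinocyte-like cells. Fos with Jun was at 0.16 to 0.29 in macrophage-like and -0.03 to 0.29 in glia-like cells. The share of a cell's UMIs given to the 10 genes also went with that given to 30 other rapid response genes, with r of 0.61 to 0.72 in mesenchyme-like cells. Against the summed share of 15 heat shock genes, the coefficient was 0.04 to 0.09 in mesenchyme-like cells and 0.24 to 0.57 in keratinocyte-like cells. It was -0.24 to 0.43 in macrophage-like and -0.14 to 0.43 in glia-like cells. Cells of a library share their handling and their library, so these values describe the cells and are no test.

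Between mutant and control libraries no gene of the 10 passed the test. In all kept cells 0 of the 10 passed edgeR's quasi-likelihood test with Benjamini-Hochberg adjustment, where 0% of 18080 genes were called and 4.88% had an unadjusted p under 0.05. In the 9 classes 0 of 90 pairs of gene and class passed. The shares of all genes called there were 0% in glia-like, simple nasal epithelium-like, chondrocyte-like and osteoblast-like cells, 0.0126% in mesenchyme-like, 0.0264% in macrophage-like, 0.0534% in keratinocyte-like, 0.0654% in endothelial-like and 0.418% in mural-like cells. With DESeq2's Wald test the count of the 10 genes called was 0 in all kept cells and 0 in the classes. At an unadjusted p under 0.05 there was 1 gene of the 10 in all kept cells (Egr1). By class there were 4 in glia-like cells (4.92% of genes), 3 each in keratinocyte-like (6.54%), simple nasal epithelium-like (2.85%) and chondrocyte-like cells (3.96%), 2 in macrophage-like (6.02%), 1 each in osteoblast-like (3.62%), mural-like (10.1%) and mesenchyme-like (8.01%) and 0 in endothelial-like cells (6.17%). The design has 2 libraries a group, and whether each is a separate litter or batch is not given, so the tests measure the spread between these 4 libraries.

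Gadd45b was the gene whose libraries most often parted by group. In all kept cells control levels of 105 and 64.4 CPM stood against mutant levels of 114 and 118 CPM, a log2 difference of 0.42 ± 0.21 (adjusted p = 0.909). It was the 1 gene of the 10 with both mutants above both controls, as for 24.9% of all genes, while Egr1 and Fosb had both mutants below both controls, as for 13% of genes. In 7 of the 9 classes both mutants were also above both controls, and in the other two, keratinocyte-like and endothelial-like cells, the groups overlapped. Gadd45b was the 1 such gene of the 10 in osteoblast-like (20.5% of genes) and mesenchyme-like cells (26.2%), 1 of 2 in macrophage-like (16.9%) and 1 of 4 in mural-like cells (23.4%). The largest differences were in glia-like (1.49 ± 0.45, adjusted p = 0.908), macrophage-like (0.86 ± 0.20, adjusted p = 0.361), chondrocyte-like (0.75 ± 0.23) and osteoblast-like cells (0.70 ± 0.28). Control 2 was the lowest library in 8 of the 9 classes. The classes of a library are not independent, and with 2 libraries a group the count over classes adds no replicate. Thinned to 3000 UMIs, 21.6% and 13.8% of control cells and 25.4% and 24.9% of mutant cells had a UMI of Gadd45b (exact permutation test, two-sided p = 0.33, the smallest that 2 against 2 libraries can give). It was the 1 gene of the 10 whose thinned shares did not overlap between groups, where 38.3% of genes did not. Without thinning the groups overlapped, at 40.5% and 27.1% in the controls and 47.2% and 37.6% in the mutants.

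Egr1 and Fosb lay on the other side. Over all kept cells Egr1 had 240 and 351 CPM in control against 196 and 229 CPM in mutant libraries (-0.52 ± 0.20, adjusted p = 0.909). In keratinocyte-like cells it was at 727 and 1004 CPM against 591 and 612 CPM (-0.53 ± 0.16, adjusted p = 0.514), and in mesenchyme-like cells at 163 and 308 CPM against 119 and 191 CPM, where the groups overlapped. Both mutants lay below both controls for Egr1 in keratinocyte-like and macrophage-like cells (18.5% and 18.4% of genes did so), where Fosb and Ier2 respectively were the other gene with both mutants below. Fosb was the 1 such gene in endothelial-like cells (19.2%). Fosb was at 129 and 184 CPM against 98.7 and 126 CPM over all kept cells (-0.52 ± 0.21, adjusted p = 0.909). With equal weight for each class, Egr1 was at -0.33 and Fosb at -0.31. For the other 7 genes the log2 difference in all kept cells was between -0.39 (Nr4a1) and 0.09 (Atf3), and the groups overlapped.

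In glia-like cells, a class that expresses Sox10, 9 of the 10 genes had a higher mean in the mutants. The log2 difference was positive for 2706 of all 5471 genes tested there. Of the 10, 5 had both mutants above both controls (22% of genes tested there did). The 10 genes were measured in the same libraries, so their number adds no replicate. Fos had 340 and 365 CPM in control against 563 and 646 CPM in mutant libraries, a log2 difference of 0.70 ± 0.20 (adjusted p = 0.902). Ier2 was at 67.1 and 55.5 CPM against 104 and 129 CPM (0.81 ± 0.32), and Jun at 574 and 353 CPM against 723 and 594 CPM (0.43 ± 0.24). Junb was at 30.1 and 51.6 CPM against 145 and 52.9 CPM, so its difference of 1.40 ± 0.49 rested on mutant 1. The numbers behind these levels were small: 22 to 44 cells per library, 92 to 210 UMIs of Fos, 9 to 54 of Junb and 4 to 40 of Gadd45b. The median log2 difference of the 10 genes was 0.50, beside -0.0044 over the 5471 genes tested in this class. Of 13 heat shock genes tested in glia-like cells, 10 also had both mutants above both controls, and their part in the result was not tested. In all kept, mesenchyme-like and macrophage-like cells 8 of 15 heat shock genes did (24.9%, 26.2% and 16.9% of genes). There 1, 1 and 2 of the 10 did. In the other tested classes 3 to 6 of 13 or 15 heat shock genes did (17% to 23.4% of genes), and 0 to 6 of the 10. In simple nasal epithelium-like cells 6 of the 10 genes had both mutants above both controls (18.4% of genes did). Jun was there at 622 and 455 CPM against 781 and 808 CPM (0.53 ± 0.15, adjusted p = 1.00), and control 2 contributed 32 cells to this class. Atf3 in chondrocyte-like cells was at 34.9 and 63.2 CPM against 89.5 and 106 CPM (1.05 ± 0.28, adjusted p = 1.00), 1 of 3 genes there with both mutants above (18.1% of genes).

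**Figure D4:**
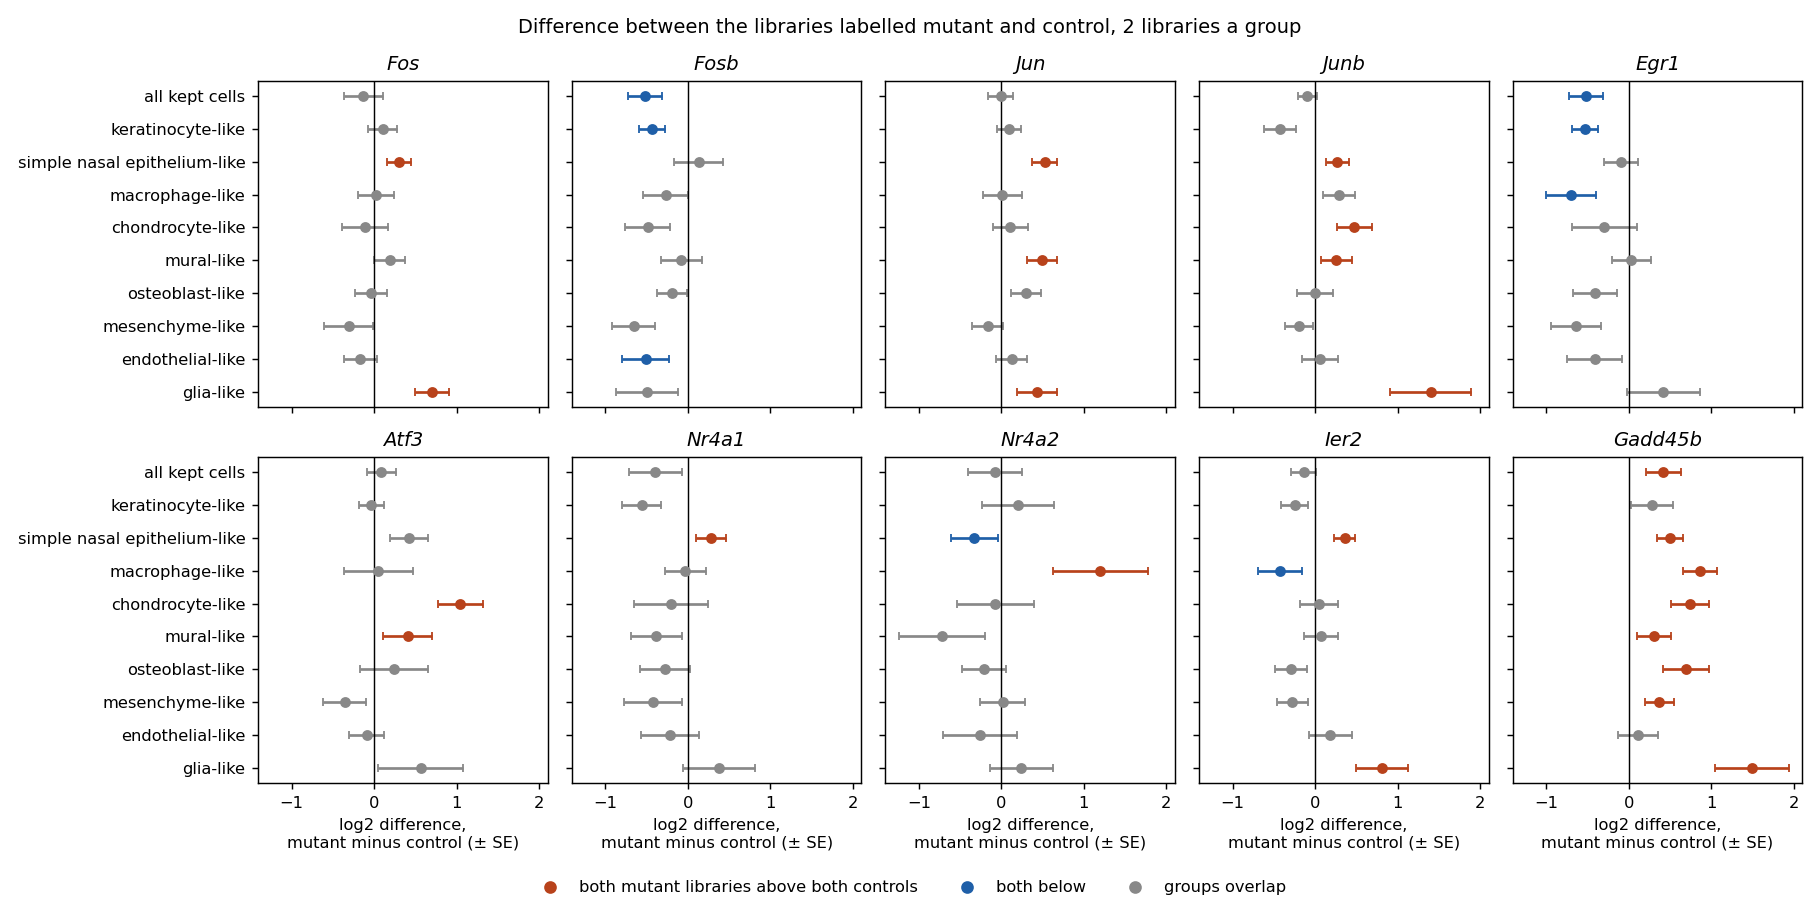
Log2 difference between mutant and control libraries (points, with bars of 1 SE) for each gene in all kept cells and in 9 classes. Red marks both mutants above both controls and blue both below; Gadd45b is red in all kept cells and in 7 classes, and no point passed the adjusted threshold.

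Whether the difference between groups itself differed between classes was tested with the class by group terms of 1 edgeR fit. No gene of the 10 passed, where 0.0245% of 12249 genes did. Junb alone had an unadjusted p under 0.05, as 5.64% of genes did (edgeR adjusted p = 0.840). With no filter on low counts, 5 of the 10 passed (Fos, Jun, Junb, Atf3 and Ier2), among 669 of 26200 genes. Glia-like cells were not set against the other classes by themselves.

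The result depended on the control libraries. Without control 1, control 2 alone stood for the controls and was assumed to vary like the mutants, and Gadd45b (0.80 ± 0.09, adjusted p = 0.0174) and Egr1 (-0.78 ± 0.11, adjusted p = 0.0341) passed in all kept cells, among 410 of 18642 genes. Without control 2, Gadd45b was at 0.12 and Egr1 at -0.20, and neither passed. Fosb was at -0.22 without control 2 and at -0.76 without control 1. In the classes 19 of 90 pairs then passed, among them Gadd45b in glia-like (2.45), osteoblast-like (1.49), chondrocyte-like (1.15) and mesenchyme-like cells (0.72), Egr1 in keratinocyte-like (-0.76), macrophage-like (-1.10) and mesenchyme-like cells (-1.03), and Jun in simple nasal epithelium-like cells (0.79). The genes called in that setting numbered 148 of 5628 in glia-like, 216 of 10572 in osteoblast-like, 225 of 9574 in chondrocyte-like, 743 of 16321 in mesenchyme-like, 261 of 11646 in keratinocyte-like, 190 of 8120 in macrophage-like and 430 of 11974 in simple nasal epithelium-like cells. Without control 2, 3 pairs passed: Junb in glia-like cells (1.80) and Atf3 (1.47) and Egr1 (0.73) in chondrocyte-like cells, the last with a sign opposite to that over all 4 libraries (-0.29); 36 of 7025 genes were called in the first class and 50 of 10344 in the second. Without mutant 2, Junb in glia-like cells passed (1.82), among 34 of 6945 genes, and without mutant 1 none did.

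In all kept cells the summed level of the 10 genes was 2188, 2660, 1973 and 2560 CPM. There, libraries of 1 group differed from each other by more than the group means did. In glia-like cells (1360, 1178, 1985 and 1939 CPM) and simple nasal epithelium-like cells (3229, 2964, 4175 and 3694 CPM) the group means differed by more than libraries of 1 group. In mesenchyme-like cells, the largest class, the summed level was 1626, 2418, 1354 and 2051 CPM, so that the order from high to low was control 2, mutant 2, control 1, mutant 1. The same order held in each of 4 bins of equal cell number made by depth, and in each of 4 made by mitochondrial share. Egr1, Nr4a1 and Nr4a2 were each highest in control 2 in 7 of the 9 tested classes, Jun was highest in mutant 2 in 7 and Fos in 6. Nr4a1 was higher in mutant 2 than in mutant 1 in all 9 classes. Gadd45b was in no class highest in a control library. The higher mitochondrial share, Malat1 and haemoglobin of control 2, and the lower depth of mutant 2, moved with these library differences, and their part in them was not tested. Within libraries the summed level went with mitochondrial share in mutant 1, from 1121 CPM in the lowest bin to 1698 CPM in the highest, and in control 1, from 1476 to 1779 CPM. In control 2 it was 2257 CPM in the lowest bin and 2273 CPM in the highest. By depth, it went from 1925 CPM in the shallowest bin of control 1 to 1433 CPM in the deepest, and from 2002 to 2079 CPM in mutant 2.

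**Figure D5:**
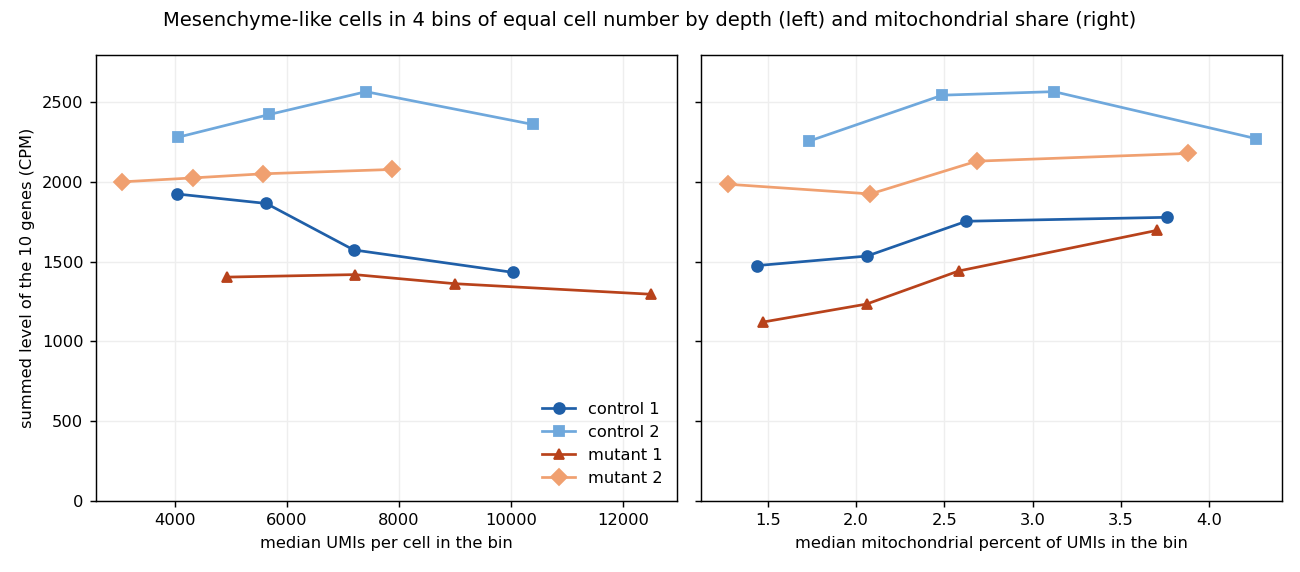
Summed level of the 10 genes (CPM) in mesenchyme-like cells of each library, in 4 bins of equal cell number by UMIs per cell (left) and by mitochondrial percent (right); each point is 1 bin. The lines of the 4 libraries do not change order: control 2 is highest and mutant 1 lowest in every bin.

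Lists of related genes, 7 in all, were set beside the 10. In all kept cells none of them had a gene past the threshold, as for 0% of all genes. There 4.88% of all genes had an unadjusted p under 0.05. Of 10 other AP-1 subunits 0 had an unadjusted p under 0.05, and Jund was at 642, 681, 578 and 746 CPM (-0.04) and Atf2 at 84.5, 95.1, 90.9 and 85.1 CPM (-0.07). Of 30 other rapid response genes 2 did. Ccn1 and Btg2, named as the most abundant of the 30, were not among these 2 (edgeR unadjusted p = 0.138 and 0.0826). Ccn1, a YAP and TAZ target, was at 188, 258, 179 and 195 CPM (-0.29). Btg2, an antiproliferative gene, was at 161, 175, 184 and 270 CPM (0.39). Of 13 feedback and target genes of ERK, the kinase upstream of Egr1 and Fos, 4 had an unadjusted p under 0.05. Both mutants lay below both controls for 7 of the 13, and for 13% of all genes. The median over the 13 was -0.22, beside 0.00 over all genes. By the rule for naming, the most abundant of them were Spred1 at 99.1, 109, 111 and 102 CPM (-0.01) and Phlda1 at 60.8, 68.3, 57.4 and 59.8 CPM (-0.18). Of 21 upstream factors and kinases tested 0 had an unadjusted p under 0.05, with Crebbp at 0.02 and Map2k2 at 0.07. Of 5 genes of the integrated stress response tested 0 did, with Atf4 at 0.13 and Asns at 0.08. The haemoglobin genes Hbb-bs (78.1, 571, 355 and 95.0 CPM) and Hbb-bt (31.0, 342, 157 and 30.2 CPM) were highest in control 2. In all kept cells these levels mix free RNA with red cells. Cells gated by red cell markers numbered 0, 3, 1 and 1. In mesenchyme-like cells Hbb-bs was at 1.52, 4.57, 6.44 and 1.17 CPM, highest in mutant 1. Hbb-y was there at 0, 5.66, 0.11 and 1.69 CPM, highest in control 2.

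Heat shock genes were the 1 list with a call in a class. In all kept cells 4 of 15 had an unadjusted p under 0.05, where 4.88% of all genes did. The most abundant, Hsp90ab1 (0.09) and Hspa8 (0.05), encode chaperones present in most cells. In keratinocyte-like cells Hspa1a had 39.1 and 22.4 CPM in control against 193 and 225 CPM in mutant libraries (2.64 ± 0.21, edgeR adjusted p = 0.00245). Hspa1b had 78.5 and 99.1 CPM against 221 and 224 CPM (1.35 ± 0.15, edgeR adjusted p = 0.0261). Both calls were lost with the stricter cell filter (at least 1000 genes and at most 5% mitochondrial UMIs), where 0 of 10913 genes were called. The pair encodes the inducible HSP70 chaperone from near-identical copies, so the split of reads between them is uncertain. None of the 10 immediate early genes was called in these cells, and 13 of the 15 heat shock genes were not, where 0.0534% of all genes were called. In the same cells the log2 differences of the 10 ran from -0.56 (Nr4a1) to 0.29 (Gadd45b), with Egr1 at -0.53, Fosb and Junb at -0.43 and Fos at 0.10. Between classes, 28 of the other rapid response genes were tested. In keratinocyte-like cells 18 were higher and 4 lower (27.1% and 22.2% of all genes tested were). The same counts and shares were 17 and 2 (28.9% and 28.4%) in macrophage-like and 12 and 8 (27.9% and 23.5%) in simple nasal epithelium-like cells. They were 8 and 2 (15.1% and 6.87%) in mural-like and 7 and 9 (20.8% and 14.4%) in chondrocyte-like cells. Osteoblast-like cells had 4 and 13 (21.1% and 12.2%), glia-like cells 1 and 12 (11.9% and 8.41%) and mesenchyme-like cells 0 and 19 (27.3% and 21.7%). Endothelial-like cells went the other way from the 10: 13 of these genes were higher and 3 lower there (median 0.32), against 1 and 7 of the 10 (median -0.69). Of all genes tested 22.4% were higher and 16.9% lower in that class.

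Over the 36 class by library sums, the 5 genes outside the set whose log2(CPM + 10) ran most closely with the mean of the 10 were Btg2 (Pearson r = 0.79), Sik1 (0.78), Cds1 (0.76), Dusp5 (0.74) and Mt2 (0.74), out of 9813 genes with a mean of at least 10 CPM. Sik1 encodes a kinase known as a CREB target, Dusp5 a phosphatase of ERK and Mt2 a metallothionein. Among the 10 themselves Fos was closest to their mean (r = 0.94), and Gadd45b (0.51) and Nr4a2 (-0.34) were farthest from it.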

How the data were processed

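The deposited matrices hold whole-number UMI counts per gene and cell. They were made with Cell Ranger, given as version 8.0.1 per the file headers and as version 4 per the submitters' processing notes, which also name Seurat 4.3.0 and the build mm10. The filter kept cells of 500 genes or more with a mitochondrial share of 10% or less. A cell joined a class with at least 3 of its markers and 2 more than of any other list, or, for mesenchyme, 3 of its own and fewer than 3 of every other list; this gate was set after the matrices were seen. For each class, the sums of each library went into the quasi-likelihood test of edgeR 4.0.16 in R 4.3.3, with TMM scaling, its own filter on low counts, Benjamini-Hochberg adjustment and a threshold of 0.05; SEs follow from the estimate and its F value. Classes were compared in 1 fit with library as a block. Shares of cells were compared after thinning to 3000 UMIs, with exact permutation tests, and a share of 0 was given the limit that 3 counts allow, for counting error only. Doublets stayed in, except in an alternative that removed the highest Scrublet scores (scanpy 1.11.5), since the automatic cut marked 0 or 1 cells a library. Alternatives were DESeq2 1.42.0 and its scaling, all genes unfiltered, stricter cell filters and gates, and leaving out each library. The members and gene lists were chosen with earlier results of these data known. Beside the 10 genes, the 2 most abundant genes of each list and any list gene past the threshold were named. Ddit3, on 2 rows of the gene table, was not used. The fits were tested on simulated data.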

Additional observations from a re-analysis of the deposited data

How the results depend on the processing

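Between groups, the count of the 10 genes called in all kept cells was 0 in every alternative with all 4 libraries (DESeq2's test, DESeq2 size factors, no filter on low counts, doublets removed, stricter cell filter and replicate block) and 0 to 2 with a library left out. In the classes the 0 calls became 7 with no filter on low counts, which tests more genes, and 0 to 19 with a library left out. With the replicate number as a block, 1 passed (Gadd45b in osteoblast-like cells, 0.81, edgeR adjusted p = 8.51e-04). Over genes, the deviations of same-numbered libraries from their group means correlated at -0.10 to 0.11 in all kept cells and the classes. These coefficients cannot decide whether the numbers mark a shared batch or litter, which is not given. The class by group test called 5 of the 10 genes with no filter on low counts, among 669 of 26200 genes. Shares of cells did not overlap between groups for 1 of the 10 when thinned (38.3% of genes), for 3 without thinning (12.3%), for 2 when thinned to 1500 UMIs (36.6%) and for 2 to 8 with a library left out (64.7% to 76.1%). Over all genes, 0 calls in all kept cells became 30 with DESeq2, 10 with no filter and 0 to 410 with a library left out; in the classes, 0 to 30 calls became 37 to 589 with no filter and 0 to 248 with the block. Calls between classes numbered 25 to 34 higher and 24 to 34 lower over the alternatives run for that fit.

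The sign of small differences in all kept cells was not stable. With 1 library left out, the log2 difference ranged from -0.40 to 0.17 for Fos, -0.23 to 0.19 for Jun, -0.23 to 0.033 for Junb, -0.13 to 0.35 for Atf3, -0.76 to 0.10 for Nr4a1, -0.50 to 0.48 for Nr4a2, -0.32 to 0.024 for Ier2, 0.12 to 0.80 for Gadd45b, -0.78 to -0.20 for Egr1 and -0.76 to -0.22 for Fosb. It turned positive without control 2 for Fos, Jun, Nr4a1 and Nr4a2 and without mutant 1 for Fos, Jun, Junb, Nr4a2 and Ier2, and negative without control 2 or mutant 2 for Atf3. Jun was at 0.0022 with doublets removed. With equal weight for each class, Fos was at 0.095, Jun at 0.24, Junb at 0.10, Ier2 at 0.0059, Egr1 at -0.33, Fosb at -0.31, Gadd45b at 0.61, Atf3 at 0.21, Nr4a1 at -0.24 and Nr4a2 at -0.053. Gadd45b ranged from -0.0056 (without control 2) to 0.85 in keratinocyte-like cells and from -0.021 (without mutant 2) to 0.23 in endothelial-like cells. The cause was not tested. In the glia-like class the low number of cells limits precision, with 4 to 54 UMIs of Junb and Gadd45b per library.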
